A study of Mus musculus with 8 samples.

Results

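Gene expression in mouse dorsal skin 6 d after wax plucking was compared with that in shaved, unplucked skin, using 2 of the 8 arrays of a hair-regrowth time course. All samples came from female C57BL/6 mice whose back follicles were in the resting phase, telogen. According to the design text, the coat had first been waxed to synchronise the follicles, and this holds for the control as well. The control was taken immediately after shaving from a mouse labelled 10 weeks old. The plucked sample was taken 6 d after a further waxing from a mouse labelled 11 weeks old, while the treatment protocol gives 7 to 8 weeks. The labels call the samples adipose cells, whereas the design text describes adipose and dermal tissue around the follicles. Each of the 8 groups has 1 array, so every value below is a level or a fold without a test, standard error or p-value, and the spread between mice is unknown.

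Of 34790 gene names on the array, 29337 gave signal well above background on at least the brighter array and are called measured. Levels are log2 processed signals relative to the 75th percentile of each array, and differences are 6 d minus shaved, so that 1 is a 2-fold difference. At 6 d, 1247 genes were at least 2-fold higher (4.25% of those measured) and 613 were at least 2-fold lower (2.09%). The median difference over all genes measured was -0.08. Among 9092 genes with several probes, the median SD between probes of a gene was 0.19. Repeated spots of a probe had a median SD of 0.07 on both arrays. Probes well above background made up 81.2% of spots at 6 d and 75.3% in the control.

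Where no probe of a gene cleared background on one array, the fold is a bound, given with the words "at least". It was taken against the higher of its own signal there and the lowest signal of any probe well above background. Of the 1247 higher genes, 407 were of this kind, and of the 613 lower genes, 133. Counts use the measured difference, so a counted gene can have a bound under 2-fold.

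The hair follicle cycles through growth (anagen), regression (catagen) and rest (telogen). Plucking the club hair starts a new anagen, in which matrix cells around the dermal papilla divide and differentiate into the inner root sheath, which moulds the hair, and into the cuticle, cortex and medulla of the shaft. The shaft is built from hair keratins crosslinked by cysteine-rich and glycine- and tyrosine-rich keratin-associated proteins, and melanocytes in the bulb pass pigment to the cortex.

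The labelled tissue was checked against its defining markers first. Some adipocyte genes were bright on both arrays. Cfd, which encodes the serine protease adipsin, had a level of 8.81 in the control and 7.92 at 6 d. Fabp4, the adipocyte fatty acid carrier, had 8.26 and 7.49. Some genes of skeletal muscle were as bright, such as Tnnc2 (8.97 and 8.56) and Acta1 (8.65 and 8.44). The skeletal muscle list had median levels of 6.45 in the control and 6.55 at 6 d. The lipid droplet list had lower medians of 3.06 and 2.33, and the adipokine list 1.75 and 1.30. Markers of hair follicle, epidermis, macrophages and blood were also detected. In such bulk samples, fewer cells of a type and less RNA per cell cannot be told apart.

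**Figure D1:**
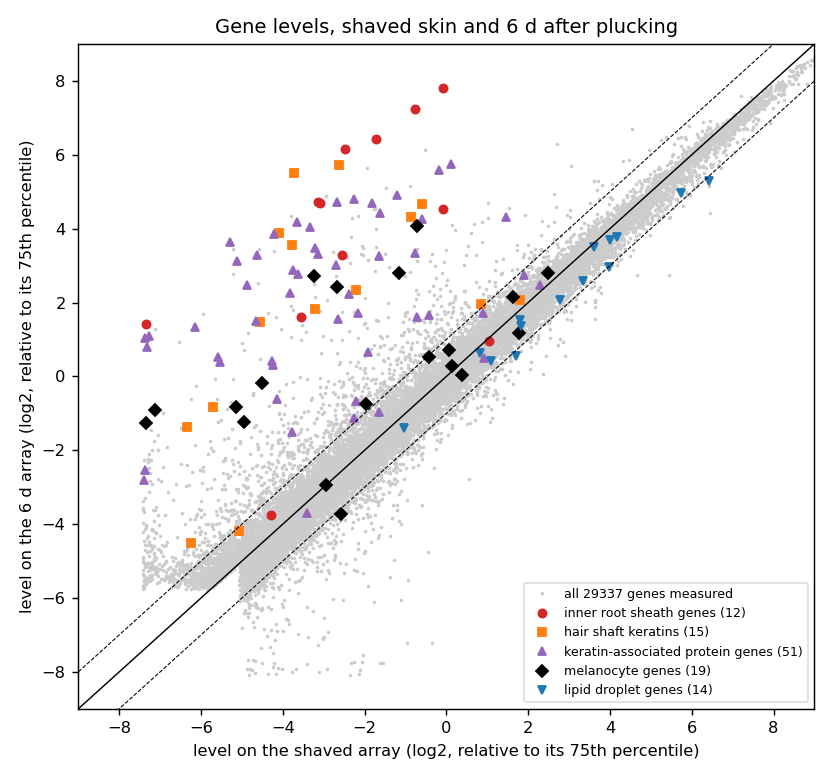
Level of each of the 29337 genes measured on the shaved array (x axis) and on the 6 d array (y axis), both log2 relative to the 75th percentile of the array; the solid line marks equal levels and the dashed lines 2-fold. Inner root sheath, hair shaft keratin and keratin-associated genes lie mostly far above the upper dashed line, while the 14 lipid droplet genes lie on or below the line of equality.

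Genes of the inner root sheath stood furthest from the control. Of 12 listed genes, 10 were at least 2-fold higher and none lower, with a median difference of 7.83 against -0.08 over all genes. With the gene dim in the control placed at its bound, the median was 7.15. Relative to the control, the list median was also above 0 on earlier arrays, at 2.61 at 12 h, 0.45 at 1 d and 3.18 at 2 d. Krt71, a type II keratin of the sheath, had a level of -0.09 in the control and 7.82 at 6 d, a difference of 7.90 or 240-fold. Its type I partners were as far apart. Krt25 had levels of -2.47 and 6.17, which is 398-fold, and Krt27 had -1.72 and 6.42, which is 281-fold. Krt26 did not clear background in the control and was at least 91.0-fold higher at 6 d. Tchh, which encodes trichohyalin, the granule protein of the sheath and medulla, was 259-fold higher, and its relative Tchhl1 was 235-fold higher. Padi3, the deiminase that modifies trichohyalin, was 57.7-fold higher. The exceptions were Krt74, at 1.45-fold higher, and Tgm3, a transglutaminase that crosslinks sheath proteins, whose levels of 1.03 and 0.97 were nearly equal.

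Of 15 hair shaft keratin genes, 13 were at least 2-fold higher and none lower, with a median difference of 5.03. Krt33a, a cortical type I keratin, gave the largest difference of any gene with a proper symbol measured on both arrays, from -3.74 to 5.51, which is 608-fold. Krt35, which appears early in the matrix and cuticle, was 327-fold higher, Krt33b was 253-fold higher and Krt34 was 160-fold higher. Among the type II partners, Krt83 was 65.7-fold, Krt86 39.0-fold and Krt82 32.7-fold higher. The Krt83 probe shared 51 of 55 aligned bases with the Krt81 probe, so its signal cannot be assigned to 1 gene with certainty. Krt36 was 2.18-fold higher. Krt84 and Krt85 did not reach 2-fold.

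The value for Krt85 depended on the probe. This gene had 3 probes, and the brightest one, which stands for it here, had no position in the array's annotation and gave a difference of 0.29. The other probes, both on chromosome 15 of mm9, gave 1.47 (chr15:101346117-101346176, minus strand) and 7.98 (chr15:101261695-101261754, minus strand). The Krt85 probe standing for the gene had levels of 1.79 in the control and 2.08 at 6 d. It shared 51 of 57 aligned bases with the Krt81 probe and 50 of 58 with the Krt83 probe, so its signal cannot be assigned to 1 gene with certainty. Both other probes annotated to Krt85 were higher at 6 d by more than the probe that stands for the gene. Their positions lie far apart, and whether both report Krt85 was not tested.

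All 51 genes whose names begin with Krtap were measured, and 45 were at least 2-fold higher and none lower. Their median difference was 5.72, and with genes dim in the control placed at their bound it was 5.62. Krtap5-5, counted as within 2-fold, depended on the probe. Its brightest probe gave -0.44, and its 4 probes ran from there to 6.04. The family is encoded mainly in clusters on chromosomes 11 and 16. On chromosome 11, where many members are of the cysteine-rich kind, 19 of 20 were higher, with a median of 5.90. On chromosome 16, which holds many glycine- and tyrosine-rich members, 18 of 21 were higher, with a median of 6.06. Of the 10 members elsewhere, 8 were higher, with a median of 3.21. Krtap17-1, on chromosome 11, had a level of -4.20 in the control and 3.86 at 6 d, or 267-fold. Krtap9-3 was 240-fold and Krtap22-2 227-fold higher. Krtap28-13 was at least 427-fold, Krtap3-3 at least 296-fold and Krtap16-5 at least 85.5-fold higher.

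The stretches of chromosome with the most higher genes were then listed. They were picked by that count on these same arrays and hold many of the genes counted above, so they add no separate support. Over all genes measured, 4.25% were at least 2-fold higher. Between 99 and 100 Mb of chromosome 11 in mm9, which spans the type I keratins and the keratin-associated genes beside them, 53 of 69 genes measured were at least 2-fold higher. Between 89 and 90 Mb of chromosome 16, 20 of 32 genes were higher. Among the 50 gene names with the highest differences, 30 were hair keratins, keratin-associated or root sheath genes. Those lists held 15, 51 and 12 of the 29337 genes measured. The ranking used measured differences, also where the fold is a bound.

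Krtap6-1 and Krtap16-8 illustrate how alike members of the family are. Their brightest probes, on chromosome 16 of mm9, shared 57 of 60 bases, and each gene also had another probe. The pair of similar probes is shown because their signals cannot be assigned to 1 gene with certainty. Capitals mark the bases at which they differ.
Krtap6-1 probe, chr16:89032140-89032199, plus strand: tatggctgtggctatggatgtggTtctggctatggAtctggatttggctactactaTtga
Krtap16-8 probe, chr16:89047852-89047911, minus strand: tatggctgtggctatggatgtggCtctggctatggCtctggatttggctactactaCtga
These probes gave differences of 6.13 for Krtap6-1 and 5.76 for Krtap16-8. The other probe of each gene gave 7.21 and 6.63, so each of these probes was far higher at 6 d. Whether the other probes report 1 gene each was not tested.

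The shaft and sheath genes differed in how their 6 d levels stood beside the 4 d and 10 d arrays. Of the 51 keratin-associated genes, 47 were at least 2-fold higher at 6 d than at 4 d, against 5.13% of all genes measured. Of the 15 shaft keratins, 11 were. Krtap3-1, for example, had levels of 0.26 at 4 d, 4.04 at 6 d and 3.94 at 10 d. Only 3 of the 12 sheath genes were at least 2-fold above 4 d, and Krt71 had 8.04 at 4 d, 7.82 at 6 d and 6.89 at 10 d. At least 2-fold above the 10 d array (3.81% of all genes) were 8 of 12 sheath genes but 8 of 51 keratin-associated genes. Another 14 keratin-associated genes were at least 2-fold below their 10 d level (2.26% of all genes). Krt35 was 1 of the 4 shaft keratins not 2-fold above 4 d, with 5.81 at 4 d, 5.72 at 6 d and 4.31 at 10 d.

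**Figure D2:**
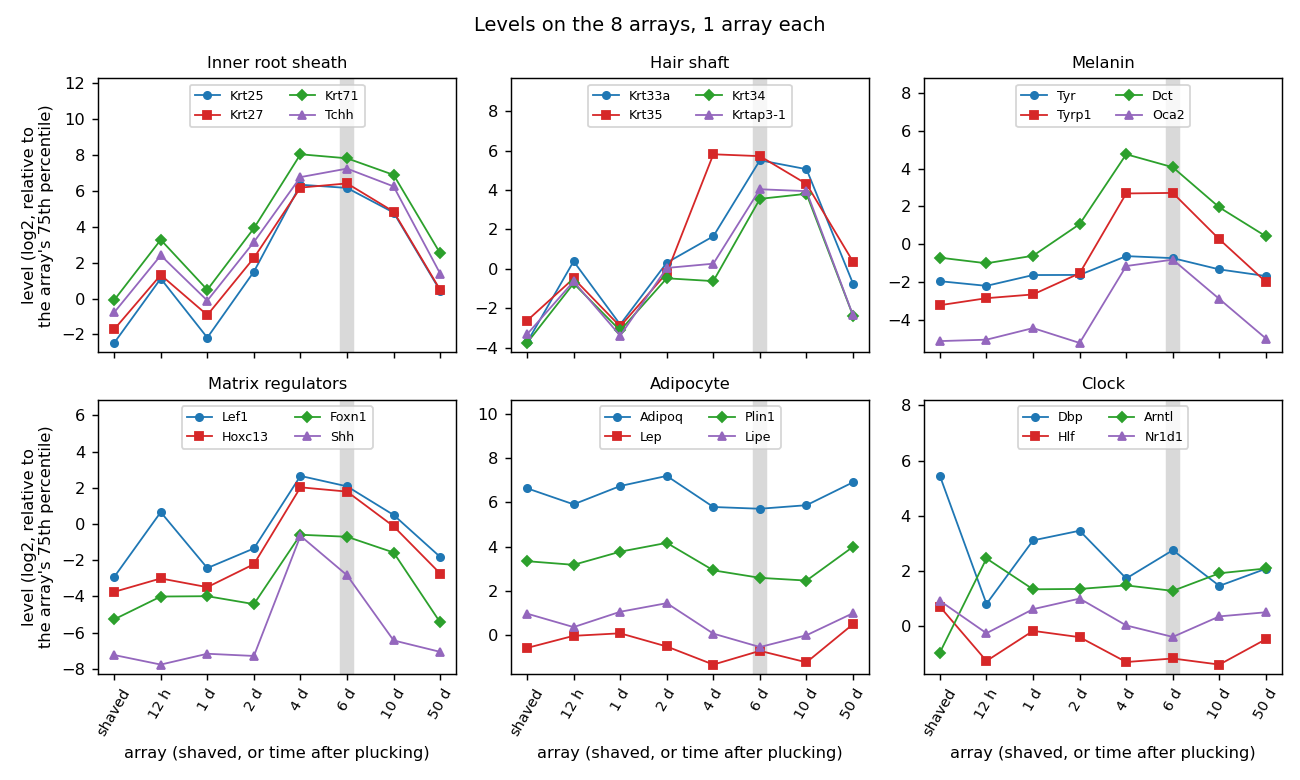
Levels (y axis, log2 relative to the 75th percentile of the array) of 24 genes on the 8 arrays (x axis), 1 array each; the grey band marks 6 d. The 4 sheath genes differed by less than 2-fold between 4 d and 6 d, Krt33a, Krt34 and Krtap3-1 were several-fold higher at 6 d than at 4 d, and Dbp was highest on the shaved array.

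Of 19 listed regulators of the hair matrix and shaft, 11 were at least 2-fold higher and none lower, with a median of 2.08. With genes dim in the control placed at their bound, the median was 1.42. Hoxc13, a homeobox factor needed for hair keratin expression, had a level of -3.75 in the control and 1.79 at 6 d, 46.6-fold. Lef1, the partner of beta-catenin in the matrix and precortex, had -2.93 and 2.08, 32.3-fold. Foxn1, the gene mutated in nude mice, was at least 20.8-fold higher, and Dlx2, a homeobox factor, at least 22.3-fold. Ovol1, a zinc finger factor of differentiating epithelium, was 18.7-fold higher. Sox21, a factor of the hair cuticle, was another gene with unlike probes, one at 0.18 and one at 2.89.

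Because LEF1 and TCF factors bind words with the core CTTTG, the promoters of the hair genes were searched on both strands for the word CTTTGAA, the word CTTTGAT, the word CTTTGTA and the word CTTTGTT. RefSeq windows of GRCm38.p6 from 250 bases before to 50 after the start were used, taking the first listed window of a gene. At least 1 word occurred in 16.9% of the 27025 promoters. It occurred in 5 of 9 hair shaft keratin promoters, 4 of 11 inner root sheath promoters and 19 of 51 keratin-associated promoters. These 51 were all promoters whose current RefSeq symbol begins with Krtap, which is not the same set as the 51 array names described above. The promoters of Krt34, which held 2 words in the direction of the gene, and Krtap28-13, which had the largest bound, are shown with the words in capitals.
Krt34 promoter, chr11:100041505-100041804, minus strand: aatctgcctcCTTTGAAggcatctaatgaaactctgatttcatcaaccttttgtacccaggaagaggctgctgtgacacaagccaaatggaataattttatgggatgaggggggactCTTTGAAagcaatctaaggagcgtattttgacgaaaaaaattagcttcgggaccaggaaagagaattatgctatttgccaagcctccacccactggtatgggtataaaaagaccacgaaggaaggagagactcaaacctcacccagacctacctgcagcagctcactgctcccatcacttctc
Krtap28-13 promoter, chr1:83060680-83060979, plus strand: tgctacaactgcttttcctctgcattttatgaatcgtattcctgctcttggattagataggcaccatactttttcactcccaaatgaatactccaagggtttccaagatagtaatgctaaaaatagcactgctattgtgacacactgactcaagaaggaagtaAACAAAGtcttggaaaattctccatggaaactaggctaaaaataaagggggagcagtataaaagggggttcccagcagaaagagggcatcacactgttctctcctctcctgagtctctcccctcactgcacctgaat
A word match is a description of the letters and was not tested for binding.

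Melanocyte genes differed among themselves. Of 19, 10 were at least 2-fold higher and 1 lower, with a median of 1.22. Most of the higher genes make or equip the melanosome, the pigment granule. Tyrp1, an enzyme of melanin synthesis, had a level of -3.23 in the control and 2.72 at 6 d, 61.8-fold. Dct, the dopachrome tautomerase, had -0.71 and 4.08, 27.7-fold. Pmel, the fibril protein, was 33.9-fold, Mlana 15.4-fold and Slc24a5, an ion exchanger of the granule, 20.2-fold higher. Gpr143, the melanosome receptor, was at least 14.2-fold higher. Tyr, the rate-limiting enzyme, differed less, from -1.96 to -0.74, 2.33-fold. Genes that mark the melanocyte lineage more widely lay near the control: Mitf had a difference of 0.32, Kit 0.15, Sox10 -0.33 and Ednrb -0.61. Mlph, which links melanosomes to the myosin Myo5a, was 2.20-fold lower, while Myo5a had a difference of 0.52.

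The melanin gene promoters were searched on both strands for TCATGTG, the core of the M-box bound by MITF. It occurred in 6 of the 13 melanocyte genes with a promoter in the table, against 3.74% of all 27025. These were Tyr, Tyrp1, Dct, Trpm1, Slc24a5 and Mc1r. The Tyrp1 and Mc1r promoters, from an enzyme and a receptor that were both far higher, are shown with the core in capitals.
Tyrp1 promoter, chr4:80833963-80834262, plus strand: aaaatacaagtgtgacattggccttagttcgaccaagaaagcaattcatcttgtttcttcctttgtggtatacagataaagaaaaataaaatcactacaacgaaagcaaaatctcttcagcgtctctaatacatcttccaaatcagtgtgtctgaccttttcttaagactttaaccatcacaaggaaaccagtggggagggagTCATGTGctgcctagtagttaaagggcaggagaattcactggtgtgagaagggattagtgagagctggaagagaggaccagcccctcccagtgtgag
Mc1r promoter, chr8:123406832-123407131, plus strand: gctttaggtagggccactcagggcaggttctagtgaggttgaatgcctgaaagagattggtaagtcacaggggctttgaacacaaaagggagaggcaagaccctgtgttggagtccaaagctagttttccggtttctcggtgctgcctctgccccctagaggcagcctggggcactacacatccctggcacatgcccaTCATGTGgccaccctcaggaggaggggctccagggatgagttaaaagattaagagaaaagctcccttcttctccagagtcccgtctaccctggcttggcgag
In Tyrp1 the match began 47 bases before the start and in Mc1r 52 bases before it. Mc1r, the melanocortin receptor, did not clear background in the control and was at least 18.2-fold higher at 6 d. The 4 probes of Trpm1, a melanocyte ion channel, gave 0.64, 0.70, 2.76 and 7.20, so the brightest probe, at 0.64, stood lowest.

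**Figure D3:**
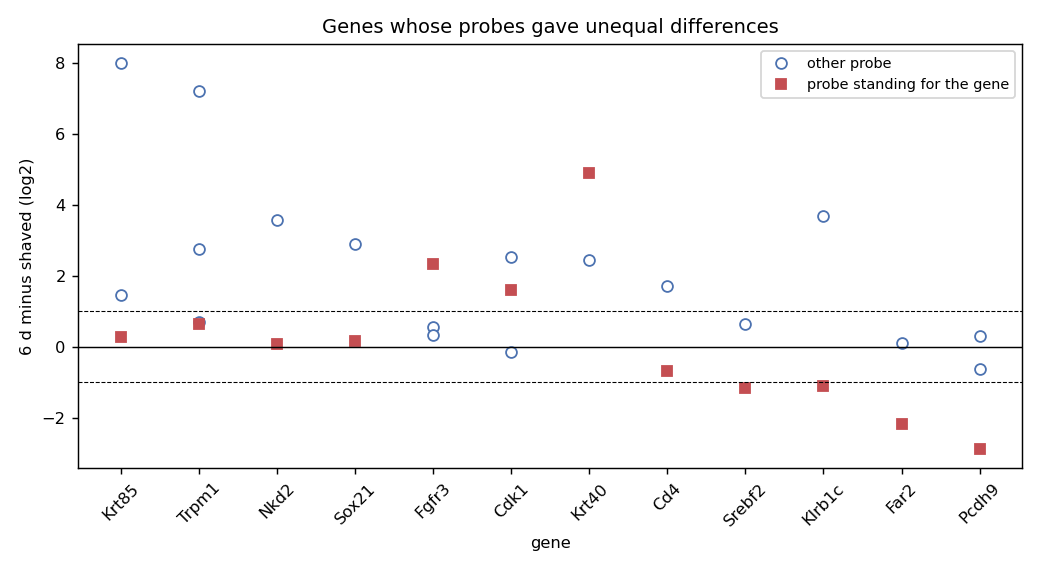
Difference in level, 6 d minus shaved (y axis, log2), of each probe of 12 genes (x axis); the filled square is the probe standing for the gene, the open circles are its other probes, and dashed lines mark 2-fold. For Krt85, Trpm1, Nkd2 and Sox21 the probe standing for the gene lies within 2-fold, while another probe of the same gene lies at 7.98, 7.20, 3.57 and 2.89.

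Of 320 genes at least 2-fold apart that had several probes, 238 (74.4%) had all of those probes on the same side of 0. Nkd2, an inhibitor of the WNT effector Dishevelled, had probes at 0.08 and 3.57, and Klrb1c, an NK cell receptor gene, had -1.10 and 3.68.

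Signalling genes of the growing follicle were higher in part. The counts below stand beside 4.25% of all genes measured at least 2-fold higher and 2.09% lower. In the hedgehog pathway, which drives matrix growth, 4 of 14 genes were at least 2-fold higher. Shh, the ligand, was at least 4.77-fold higher, and its targets Gli1, Hhip and Ptch1 were 4.55-fold, 3.99-fold and 3.33-fold higher. Shh had levels of -0.66 at 4 d, -2.83 at 6 d and -6.44 at 10 d. Gli1 likewise had 3.47, 1.53 and 0.39, so both ligand and target were lower at 6 d than at 4 d.

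Of 16 WNT ligands measured, 4 were at least 2-fold higher. Wnt10a, a ligand of the anagen matrix, had levels of -1.57 in the control and 1.04 at 6 d, 6.12-fold, and Wnt10b was 2.09-fold higher. Wnt3 was at least 6.78-fold higher. Among WNT inhibitors 3 of 13 were higher, with Wif1, a secreted inhibitor, at 11.7-fold and Kremen2, a co-receptor of DKK proteins, at 6.39-fold. Of 29 receptors, potentiators and effectors, 7 were higher, including the receptor Fzd10 at 6.65-fold. Axin2, a target of the pathway, was 2.28-fold higher by its brightest probe.

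In the BMP family, whose members restrain telogen stem cells and later drive shaft differentiation, 3 of 23 were higher and 1 lower. Over all genes the shares were 4.25% and 2.09%, so counts this small are not read as results about a family. Bmp7 was 2.73-fold higher. Grem1, an antagonist of BMP ligands, was 4.13-fold lower, with levels of -3.02 in the control, -5.07 at 6 d and -6.10 at 10 d. Bmp2 (0.87) and Bmp4 (0.56) were within 2-fold. Of 19 FGF genes, 3 were higher. Fgf5, whose loss lengthens the coat because it ends anagen, was at least 7.06-fold higher, with its highest level of the 8 arrays at 6 d (-2.27, against -3.56 at 4 d and -3.96 at 10 d). Fgfr3, a receptor, was 4.98-fold higher by the brightest of its 3 probes, while the others gave 0.55 and 0.34.

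In the EGF receptor family, ligands went in opposite directions. Ereg was at least 5.50-fold higher and Areg 2.92-fold lower, although against the 50 d array Areg had a difference of 0.12. In the TGF-beta and activin list 1 of 20 was lower and none higher, with Tgfb1 2.11-fold lower. With 2.09% of all genes measured lower, this count is not read as a result about the list. Of 16 Notch genes, 4 were higher, including the ligand Jag1 at 2.01-fold and the target Hes1 at 2.73-fold.

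Proliferation genes were higher at 6 d than in the control. Of 24 genes of the G2 and M phases, 15 were at least 2-fold higher and none lower, with a median of 1.09. Mki67, the nuclear proliferation antigen, had levels of 1.18 and 2.88, 3.26-fold. Top2a, the topoisomerase of mitotic chromosomes, was 3.30-fold and Ccnb1, cyclin B1, 2.81-fold higher. Of 20 DNA replication genes, 5 were higher, with Uhrf1 at 4.51-fold and Rrm2, a subunit of ribonucleotide reductase, at 3.24-fold. Proliferation stood lower than at 4 d and higher than at 10 d: 23 of 24 G2 and M genes were at least 2-fold above their 10 d level, and 6 of 24 were at least 2-fold below their 4 d level (2.04% of all genes). Mki67 had 4.00 at 4 d and 0.86 at 10 d.

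Other epithelial lists had lower medians than the shaft and sheath lists, though some of their genes were as far from the control. Krt75, a companion layer keratin, was at least 28.3-fold higher, Krt17 5.43-fold and Krt5 2.55-fold, while Krt16 was 1.66-fold lower. In the stem cell and germ list, 6 of 15 were higher: Lhx2, a factor of follicle progenitors, 9.39-fold, Cdh3, which encodes P-cadherin, 5.19-fold, and Lgr5 2.84-fold. Krt15, a bulge keratin, had a difference of 0.63 and Cd34 -0.28. Of 23 genes of the epidermis between follicles, 10 were higher and 1 lower, with Cnfn 15.1-fold and Flg, the filaggrin precursor, 5.79-fold higher. Krt1 (-0.07) and Krt10 (0.34) were within 2-fold. The median of these 23 over the control was larger earlier, at 2.59 at 12 h, 3.45 at 1 d, 2.15 at 2 d and 1.91 at 4 d. It was 0.83 at 6 d and -0.85 at 10 d. At 6 d, 14 of the 23 were at least 2-fold below 4 d, against 2.04% of all genes. Of 24 genes for desmosomes and crosslinking, 13 were higher. Psors1c2 was 283-fold and S100a3, a calcium-binding protein of the hair cuticle, 193-fold higher.

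Genes of the dermal papilla, the mesenchymal cells at the base of the follicle, were mostly near the control, with 4 of 21 higher, 1 lower and a median of 0.06. Corin, a papilla protease, had -4.91 in the control, -1.69 at 4 d and -4.11 at 6 d. Sox2 was not well above background on either array.

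Adipocyte genes were lower by less than 2-fold in most cases. All 14 lipid droplet genes had differences below 0, with a median of -0.57, and 3 were at least 2-fold lower. Cidec, the droplet fusion protein, had 6.43 in the control and 5.28 at 6 d, 2.21-fold lower. Plin1, the perilipin of adipocyte droplets, had 3.34 and 2.59. Of 12 adipokines, 2 were at least 2-fold lower, Nrg4 (3.01-fold) and Agt (2.26-fold), and 1 higher, Itln1, at least 2.12-fold. Adipoq, the adiponectin gene, had 6.64 and 5.71, a difference of -0.92, and Lep, the leptin gene, -0.13.

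Among genes of fatty acid uptake and lipolysis, Slc27a1, a fatty acid transporter, was 2.88-fold and Lipe, hormone-sensitive lipase, 2.84-fold lower. The 2 higher members, Aqp3 (4.77-fold) and Fabp5 (2.60-fold), are also expressed in epidermis. Transcription factors of adipocyte differentiation had none at least 2-fold apart out of 14, with Cebpa at -0.98 and Pparg at -0.65. In fatty acid and triglyceride synthesis, Pck1, the glyceroneogenic enzyme, was 2.25-fold lower, whereas Elovl6 and Acly, enzymes of fatty acid elongation and citrate cleavage, were 2.57-fold and 2.11-fold higher. Against the 50 d array these enzymes were lower, at -1.01 and -0.79. Adipocyte genes also stood low at 4 d and 10 d. Adipoq had 5.79, 5.71 and 5.87 on the 4 d, 6 d and 10 d arrays, and between 5.91 and 7.20 on the other 5. The summed signal of the 14 lipid droplet genes, in multiples of the 75th percentile, was 233.1 in the control and 136.4 at 6 d, while that of the 12 sheath genes was 5.55 and 627.6. The part of this added follicle RNA in the lower adipocyte levels was not tested.

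In cholesterol synthesis, 6 of 22 genes were higher and 1 lower, with a median of 0.42: Fdps was 3.56-fold, Sqle 3.07-fold and Idi1 2.57-fold higher. Against the 50 d array the median was -0.07, so the direction turned with that reference. Srebf2, the regulator of the pathway, had probes at -1.15 and 0.63, and the first gave 0.34 against the 50 d array. In the sebaceous gland list, 2 of 14 were higher and 3 lower. Awat1, a wax ester synthase, was 3.68-fold lower, and Far2, a fatty alcohol reductase, 4.51-fold lower by its brightest probe, the other giving 0.10.

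Most of the immune genes listed were lower than or within 2-fold of the control. Of 20 macrophage and monocyte genes, none was at least 2-fold apart, yet 19 were below 0, with a median of -0.57. The complement gene C1qc had 6.31 in the control and 5.52 at 6 d. Against the 50 d array, the macrophage median was 0.59 and the neutrophil median 0.28, so both directions turned with the reference. Of 11 neutrophil genes, 4 were at least 2-fold lower and none higher, among them S100a9 at 4.73-fold and Ltf at 3.16-fold, with Ltf at 0.30 against the 50 d array. S100a9 had 5.38 at 12 h and -1.14 at 6 d, below all other arrays. Of 14 T and NK cell genes, 3 were lower, against 2.09% of all genes measured. Gzmb, which encodes a cytotoxic granule protease, was 3.32-fold lower, and against 50 d its difference was 0.05. Klrb1c was also counted as lower, although its other probe gave 3.68. Cd4 had a difference of -0.69 by its brightest probe and 1.71 by the other. Of 8 mast cell genes, 1 was higher, the tryptase gene Tpsab1, at least 1.15-fold. Mcpt8, a protease gene of basophils outside that list, was at least 7.23-fold higher. Its value rests on 1 probe that stood out on the 6 d array alone, at -2.23 against at most -5.33 elsewhere. Inflammatory mediators included 3 of 20 lower and 1 higher, Il1a, at least 1.82-fold. Ccl4 was 2.64-fold and Lcn2, a neutrophil and epithelial siderophore binder, 2.63-fold lower. Tnf had a difference of -0.03 and Ccl2 -0.89.

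Clock genes were shifted in opposite directions. Of 16, 6 were at least 2-fold lower and 3 higher. Dbp, an output gene of the clock, had 5.45 in the control and 2.76 at 6 d, 6.46-fold lower. Hlf was 3.67-fold, Per3 2.58-fold and Nr1d1, the repressor REV-ERB alpha, 2.47-fold lower. Arntl, the BMAL1 gene that peaks in opposite phase to them, was 4.71-fold higher, Nfil3 3.04-fold and Cry1 2.39-fold. The control was the highest of the 8 arrays for Dbp and the lowest for Arntl, and Arntl lay between 1.28 and 2.46 on the 7 plucked arrays. Against the 50 d array the differences were 0.67 for Dbp, -0.81 for Arntl, -0.24 for Nfil3 and -0.17 for Cry1, the reverse of those against the control. The hour of collection was not given in the sources used here, so time of day and plucking cannot be told apart. Of 11 glucocorticoid-induced genes and metallothioneins, 4 were higher and 1 lower, with a median of 0.06. Fkbp5 was 2.03-fold and Zbtb16 2.23-fold higher, Mt2, a metallothionein, was 4.45-fold higher, and Lcn2 was 2.63-fold lower.

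Stromal genes were close to the control. Of 18 fibroblast and collagen genes, 1 was at least 2-fold higher, Col12a1 at 2.59-fold, and Col1a1 had a difference of -0.29. The fibroblast median was -0.29, and 0.34 against the 50 d array. Of 14 endothelial genes, 1 was lower, Flt4, a lymphatic receptor, at 2.24-fold. None of 24 oxidative phosphorylation genes was 2-fold apart. Red blood cell genes had a median of 0.39, and -0.57 against the 50 d array.

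**Figure D4:**
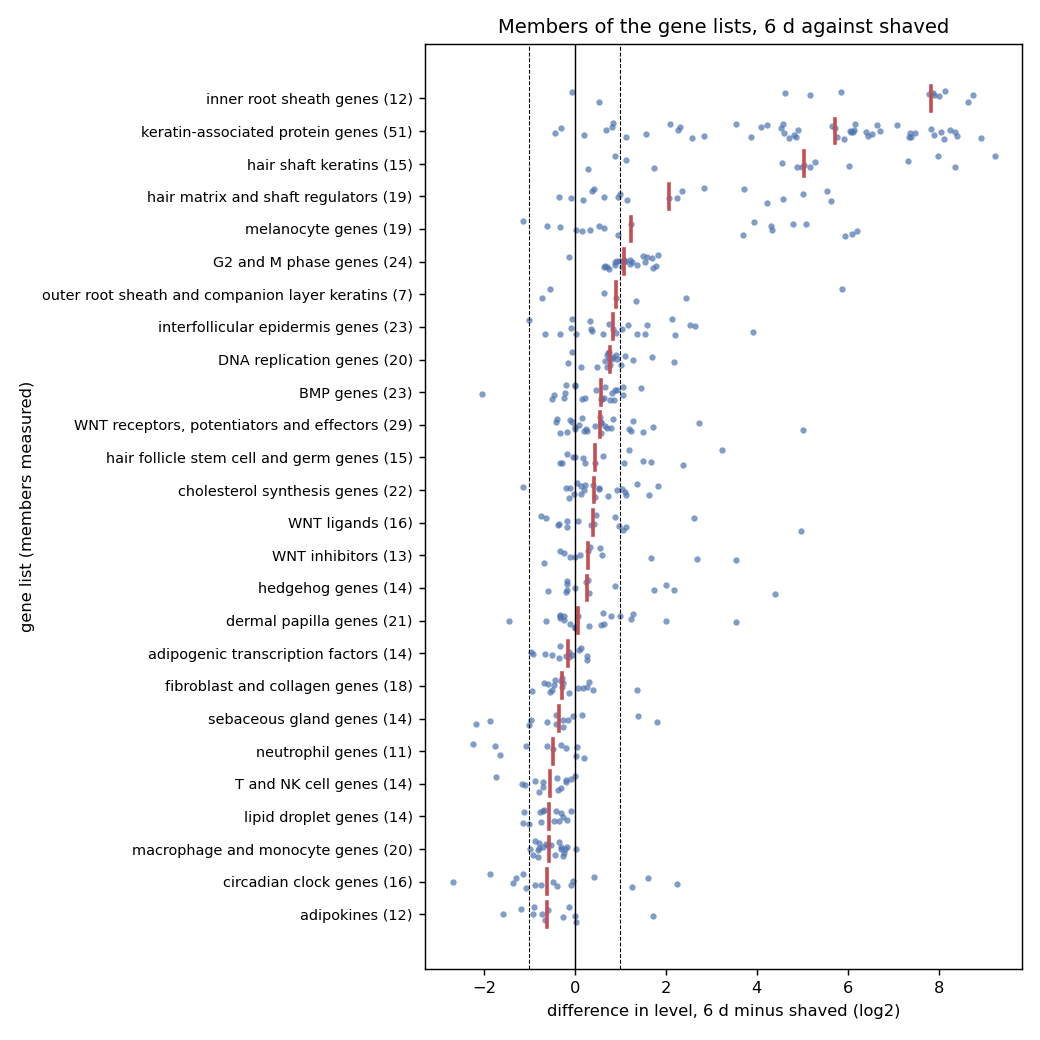
Difference in level, 6 d minus shaved (x axis, log2), of each measured member (blue points) of 26 gene lists, ordered by median (red bars), with the number of measured members in brackets and dashed lines at 2-fold. The 3 lists of hair structural genes lie far to the right at medians of 7.83, 5.72 and 5.03, and the medians of the adipocyte, macrophage and clock lists lie left of 0.

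The genes furthest below the control belonged to no single list. Among genes with a proper symbol measured on both arrays, the lowest was Rerg, a RAS-related growth inhibitor, at -1.38 in the control and -5.44 at 6 d, 16.7-fold lower. Next came Speer2 (12.8-fold), Peli3, a ubiquitin ligase (10.0-fold), Veph1 (7.90-fold), Pcdh9, a protocadherin (7.31-fold by its brightest probe, others at 0.30 and -0.63), Mrgpra6 (6.80-fold), Serpina3j (6.75-fold) and Mlc1 (6.64-fold). The largest bounds were Vmn1r104 at least 42.7-fold, Gpc2 at least 23.6-fold, Smek3-ps at least 13.0-fold and Olfr178 at least 10.6-fold lower.

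For most of these the control array was the one that stood apart. Rerg lay between -6.31 and -4.55 on the 7 plucked arrays, and Peli3 between -2.77 and -2.06. Against the 50 d array Rerg had a difference of 0.39 and Mlc1 of 0.08. Of the 613 lower genes, the control was the highest of the 8 arrays in 334 (54.5%) and at least 2-fold above every other in 116 (18.9%). Measured against the 50 d array as well, 166 (27.1%) of the 613 were at least 2-fold lower. Of the 1247 higher genes, 991 (79.5%) were also at least 2-fold above 50 d. The control was the lowest of the 8 arrays in 428 (34.3%) of the higher genes. The higher genes peaked on different arrays: 513 were highest at 4 d, 458 at 6 d and 154 at 10 d. Serpina3j differed from the rest, with levels between -2.43 and -0.25 on the other arrays apart from 10 d, and -3.92 at 6 d and -4.35 at 10 d.

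Some genes stood out on the 6 d array alone. In all, 167 genes were at least 2-fold above each of the other 7 arrays at 6 d and 5 were at least 2-fold below, the count above being smaller than at 4 d (340), 12 h (245) and 10 d (241) and larger than at 50 d (142) and in the control (116). Krtap4-9 was among them, with 1.71 at 6 d and at most -0.50 elsewhere. Fgf5 had its highest level there, and so did Krt82 at 1.82 against 0.03 or less. Genes with no listed role in hair included some with a level near the floor on every array but this one, such as Prss38 at -1.45 against at most -7.00 elsewhere. Elf3, an epithelial transcription factor, was among the genes below, at -4.64 against -3.42 or more.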

How the data were processed

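The 2 samples compared were hybridised to Agilent 1-colour arrays (Cy3), 1 array each. The deposited scanner files hold spot intensity values from Agilent Feature Extraction 10.5.1.1, with the authors' background-subtracted processed signal, and probe positions on mm9, per the file headers. Control spots and outlier-flagged spots were left out, which dropped 13 probes and kept 55668. Each array was scaled to the 75th percentile of its processed signals on the log2 scale, spots of a probe were averaged, and the probe brightest over the 8 arrays stood for a gene name. A gene counted as measured if well above background on the brighter array. Computation used pandas 2.3.3 and numpy 2.4.6 under Python 3.11.15, with limma 3.58.1 under R 4.3.3 for normexp, and was tested on simulated data.

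With 1 array a side no test was possible, and the number of arrays limits the precision. Named genes were the 12 highest and 8 lowest differences with a proper symbol measured on both arrays, the 4 largest bounds each way, up to 6 members of each list with the largest differences, members at least 2-fold away against their list, and preset anchor genes. Further genes were named after their values were seen. The members and lists were chosen with earlier results of these data known. Alternatives changed the normalization, centring, background correction, filter, probe choice, fold threshold, list summary and reference array. Promoters came from the RefSeq table of GRCm38.p6, and gene symbols are those of the array's design. One probe sequence is not reported here.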

Additional observations from a re-analysis of the deposited data

How the results depend on the processing

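No paired analysis was possible because the 2 groups share only replicate number 1 and hold 1 array each. Each of the 46 lists and each named gene was counted once per setting. Summed over the settings tried, 347 list medians moved by less than the spread between probes of a gene (0.19), 59 moved by more and 8 reversed. For named genes the sums were 1969, 385 and 17. The 50 d reference alone gave 24 of the moved and 6 of the reversed list medians. For named genes it gave 230 and 16. The median of all genes lay between -0.17 and -0.05. With normexp at offset 50 there were 645 higher and 341 lower genes, against 1247 and 613, and the medians were 4.51 for shaft keratins, 6.13 for sheath genes, 0.93 for melanocyte genes and 4.44 for keratin-associated genes. Requiring signal above background on both arrays, which leaves fewer genes, gave 5.28 for shaft keratins, 0.80 for melanocyte genes and 4.86 for keratin-associated genes. It also gave 832 higher and 476 lower genes. With no filter, which adds genes at background, 1081 were lower. Averaging all probes of a gene gave 2.82 for melanocyte genes and 1.29 for Klrb1c, reversed by its second probe. Quantile normalization brought the skeletal muscle median from -0.21 to 0.00. A fold of 1.5 gave 2392 higher and 2353 lower genes, and a fold of 4 gave 495 and 118. Means in place of medians were 6.10 for sheath, 2.43 for melanocyte, 4.98 for keratin-associated and 0.0055 for fatty acid and triglyceride synthesis genes, the last reversed from -0.25.

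With the 50 d array as reference, 1935 genes were higher and 1211 lower. The medians were 4.53 for shaft keratins, 5.26 for sheath, 5.15 for keratin-associated, 1.99 for G2 and M phase and -0.94 for lipid droplet genes. Medians over 0.19 from 0 that reversed were 0.17 for adipocyte progenitors, -0.0741 for cholesterol synthesis, 0.59 for macrophages, 0.28 for neutrophils, 0.34 for fibroblasts and -0.57 for erythrocytes. Medians nearer 0 that changed sign were -1.06 for brown fat, 0.85 for interferon-stimulated, -0.77 for oxidative phosphorylation, -0.20 for TGF-beta and activin and 0.14 for matrix protease genes. Named genes at least 2-fold apart that reversed were Rerg (0.39), Mlc1 (0.0769), Areg (0.12), Elovl6 (-1.01), Acly (-0.79), Srebf2 (0.34), Ltf (0.30), Retnlg (1.13), Gzmb (0.0490), Gzma (0.33), Adamts4 (-0.0492), Dbp (0.67), Arntl (-0.81), Nfil3 (-0.24), Cry1 (-0.17) and Pdk4 (-0.82). For these the cause was not tested. No replicate could be left out with 1 array a group, and probes not well above background limit 407 higher genes to a bound.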

Other observations

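Further groups, which share some genes with the lists above, are described here; their members were chosen after their values were seen, so the counts are descriptions. Over all genes measured, 4.25% were at least 2-fold higher and 2.09% lower. Of 33 genes of simple and glandular epithelium, 21 were at least 2-fold lower at 6 d and 1 higher, with a median of -1.35. Relative to the control, the median of these genes was also -0.84 at 4 d, -0.67 at 10 d and -0.57 at 50 d. It was 0.56 at 1 d and 0.38 at 2 d. Areg, Lcn2 and Ltf, described earlier, are among the 33 genes. Krt8 and Krt18, the paired keratins of simple epithelium, had levels of 3.64 and 4.66 in the control and 1.57 and 2.75 at 6 d. Foxa1, a transcription factor of glandular epithelium, had 1.23 and -0.60, and Aqp5, the water channel of secretory glands, 1.63 and -0.20. These 4 genes were also lower at 6 d than at 50 d, by differences of -1.20 for Krt8, -0.92 for Krt18, -1.06 for Foxa1 and -0.84 for Aqp5. Of the 33, 4 were above 0: Cldn4, a tight junction claudin (1.02), Elf5 (0.47), Tspan8 (0.33) and Pigr (0.11).

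Of 11 genes of slow muscle fibres, 7 were at least 2-fold lower, with a median of -1.30. The general skeletal muscle list, in which Myh7 was the 1 gene at least 2-fold lower, had a median of -0.21. The slow fibre median relative to the control was also -1.32 at 12 h and -1.30 at 4 d, and 1.12 at 1 d and 1.05 at 50 d, so it was not particular to 6 d. Myh7, the slow myosin heavy chain, had 2.37 in the control and 0.06 at 6 d, while the other arrays ran from -0.89 at 4 d to 4.18 at 1 d. Myl3, a slow fibre light chain, had 1.74 in the control and 0.12 at 6 d.

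Among 17 connexin genes measured, 5 were at least 2-fold higher and none lower. Gjb2, whose product forms gap junctions in epithelia, had levels of -1.78 in the control, 4.84 at 4 d and 4.55 at 6 d, and Gjb6 had -5.00, 1.05 and 0.90. All 8 Hoxb genes measured had differences above 0, with a median of 1.01, and 4 were at least 2-fold higher, while over all 32 Hox genes 5 were higher and 2 lower. Of 25 genes whose names begin with Klr, NK cell receptors for the most part, 12 were at least 2-fold lower and 1 higher. Klrb1c, whose other probe gave 3.68, is among the 12. The 50 d array was low too, with a median relative to the control of -1.11. Against it, 5 of these 12 genes were above 0 and 1, Klrb1f (-1.16), was at least 2-fold lower. The higher one, Klre1, was at least 8.79-fold higher. Vsig8, an immunoglobulin-domain gene, had -2.93 in the control, 2.25 at 4 d and 4.87 at 6 d.

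Interferon-stimulated genes, which lay near the control at 6 d, were at least 2-fold higher than at 4 d in 18 of 20 cases. The share over all genes measured was 5.13%. The median level of the interferon-stimulated genes was 1.33 in the control, -0.05 at 4 d and 1.27 at 6 d. The rise from 4 d was not particular to them: 10 of 20 macrophage and monocyte genes were also at least 2-fold above 4 d, and none was 2-fold below.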
